A study of Mus musculus with 2 samples.

Results

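The Tomm and Timm genes encode the translocases that carry proteins made in the cytosol into mitochondria, and their transcripts were compared between mouse embryonic fibroblasts in which the mitochondrial permeability transition pore (mPTP) opened much or little. The members were all 23 protein-coding genes of the deposited table whose symbol starts with Tomm (9 genes, outer membrane) or Timm (14 genes, inner membrane), out of 23097 genes listed. Outer and inner follow the symbol here and not the place of each protein. Tomm34 is a cytosolic co-chaperone, the small Timms act in the intermembrane space, and Timmdc1 is an assembly factor of respiratory complex I. The mPTP spans the inner mitochondrial membrane and, once open, lets small solutes through. Primary fibroblasts of ICR embryos were loaded with calcein and with cobalt chloride, which quenches the dye outside closed mitochondria, and were sorted by brightness. The dim cells were the high mPTP opening group and the bright cells the low mPTP opening group. Both groups carried the same strain, dye and cobalt, no further treatment or genotype is named, and neither the number of embryos nor the sort limits are stated in the sources used here.

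Each group had 1 library of total RNA, so no difference has a replicate check and no p-value was computed. Levels are FPKM, a read or fragment number divided by gene length and library depth, as the authors deposited them. A ratio is FPKM in the high over FPKM in the low mPTP opening library, followed by an exact Clopper-Pearson 95% interval from the reads behind it. Such an interval compares these 2 libraries only. It covers counting error and leaves out variation between cultures and sorts, and PCR copies are not independent molecules. The denominators recovered from the steps of the FPKM values were 16375726 reads or fragments for the high and 15060435 for the low mPTP opening library.

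Mitochondria make few of their own proteins and import the rest. Precursors pass the outer membrane through the TOM complex, whose receptors read the targeting signal and whose barrel, Tomm40, is the pore. Those with a presequence then enter the TIM23 complex, driven by the membrane potential and a matrix Hsp70 motor, while carrier proteins are escorted across the intermembrane space by small Timm chaperones and inserted by the TIM22 complex. Opening of the mPTP is known to dissipate the membrane potential on which import depends.

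None of the measured translocase genes differed by 1.5-fold between the 2 libraries, a size that few genes of their level reached. With a mean of at least 1 FPKM, 21 of the 23 members were measured, 8 Tomm and 13 Timm genes. On the log2(FPKM + 1) scale, which understates differences of low genes, 0 of the 21 differed by 1.5-fold or more. Among the 11900 measured genes of the table, 1.54% exceeded this fold upwards and 4.38% downwards in the high mPTP opening library, so a count of 0 among 21 is near the background. Among the 7324 genes that averaged 5 FPKM or more, the level of all 13 measured Timm and 7 of the 8 Tomm genes, these shares were 1.26% and 2.91%. At 1.2-fold or more, 3 Timm genes (Timm10, Timm50 and Timm8a1) were higher and 1 Tomm gene (Tomm7) was lower. That is 14.3% of the members higher and 4.76% lower, against 9.6% higher and 17.5% lower over all measured genes. Among the genes that averaged 5 FPKM or more, 9.90% were higher and 13.1% lower at 1.2-fold. Brought to the same FPKM sum, Tomm7 was no longer past 1.2-fold (log2 difference -0.18), while Tomm70a (0.27) and Timm21 (0.32) were. That scaling raises the ratio of every gene, so the shares above are not its background. With 5 FPKM added in place of 1, neither Tomm7 (-0.24) nor Timm8a1 (0.19) was past it.

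The outer and inner membrane genes had small positive medians. The 13 Timm genes had a median log2 difference of 0.10 with 9 positive, and the 8 Tomm genes a median of 0.05 with 5 positive. The median over all measured genes was -0.02, with 45.4% positive, and at a mean of at least 5 FPKM it was 0.0017, with 50.3% positive. Summed over all listed members, the 14 Timm genes reached 196 FPKM in the high and 187 FPKM in the low mPTP opening library. The 9 Tomm genes reached 171 FPKM in each. The counting interval of the ratio lay above 1 for 4 Timm genes and below 1 for 0 of the 13, while 2 Tomm genes lay above 1 and 2 below it. Among all measured genes with an exon length, 20.4% had an interval above 1 and 26.4% one below 1. At a mean of at least 5 FPKM 27.3% lay above 1, so the 30.8% of the Timm genes is near the background. The medians of the outer and inner genes differed by -0.05 (outer minus inner), and by -0.00012 when the furthest member of each list, Tomm7 and Timm10, was left out.

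**Figure D1:**
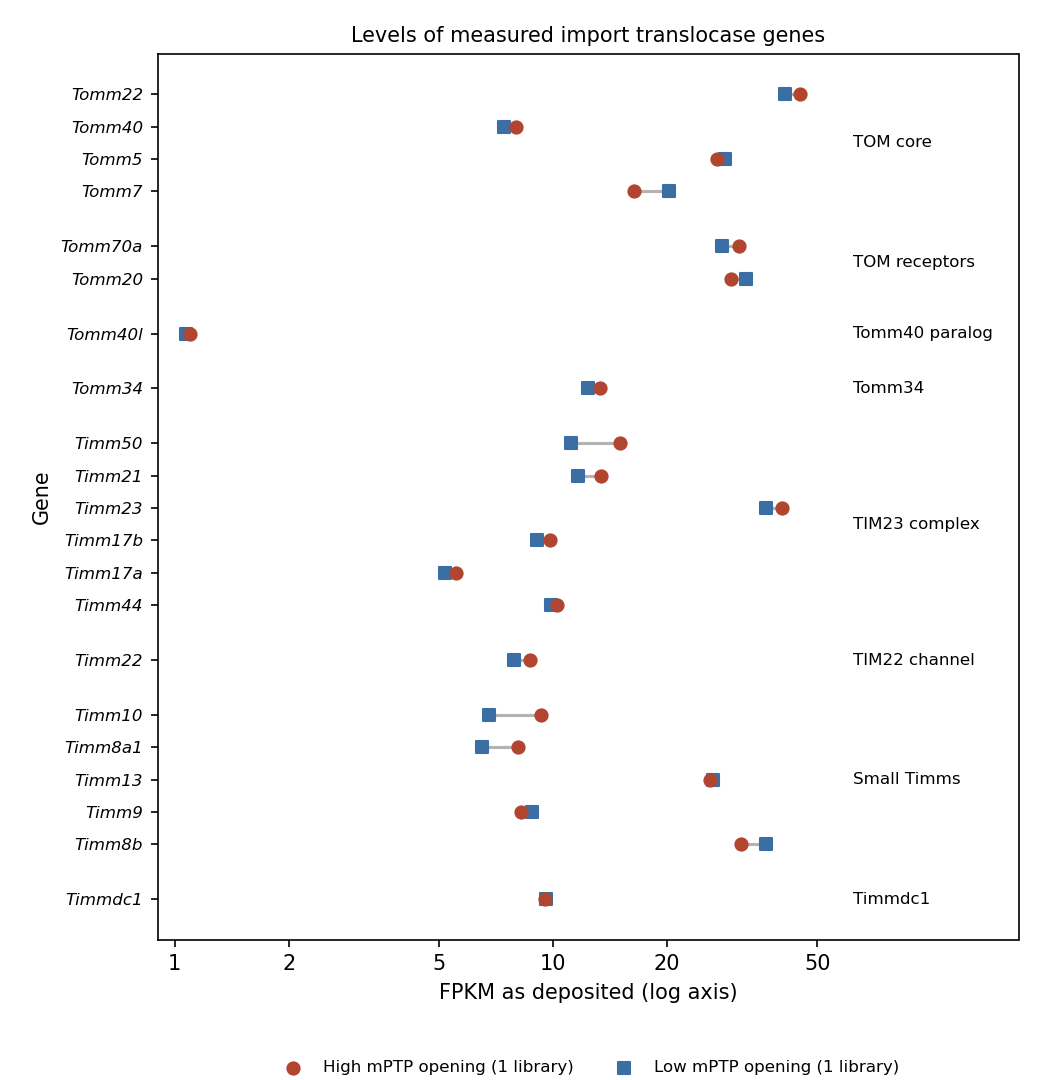
FPKM of the 21 measured translocase genes (log axis), grouped by role, with a circle for the high and a square for the low mPTP opening library. The symbols nearly coincide for most genes, and the visible gaps are those of Timm50, Timm10 and Timm8a1, with the circle to the right, and of Tomm7 and Timm8b, with the square to the right.

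The sequence before the transcription start is shown for the 3 members that were 1.2-fold or more higher, so that the start of each of these genes can be compared. Each run is the 250 bases before the RefSeq start nearest to the start in the deposited table (GRCm38.p6, the assembly of mm10), read 5′ to 3′ on the strand of the gene. They are chr7:28312047-28312296 on the minus strand for Timm50, chr2:84826771-84827020 on the plus strand for Timm10 and chrX:134541671-134541920 on the minus strand for Timm8a1. For Timm8a1 that start lies 195 bases inside the gene as the table lists it. Most of its run, with all its GGGCGG matches, is therefore within the listed gene and not before it. For Timm50 the start lies 26 bases inside the listed gene, and for Timm10 it lies 24 bases inside. Capitals mark matches, on either strand, to 4 short motifs given after the sequences.
Timm50: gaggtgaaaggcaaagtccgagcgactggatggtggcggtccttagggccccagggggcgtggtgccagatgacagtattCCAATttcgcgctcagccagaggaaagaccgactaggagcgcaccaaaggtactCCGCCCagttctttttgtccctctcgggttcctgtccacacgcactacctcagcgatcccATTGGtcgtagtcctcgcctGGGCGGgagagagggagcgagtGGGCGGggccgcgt
Timm10: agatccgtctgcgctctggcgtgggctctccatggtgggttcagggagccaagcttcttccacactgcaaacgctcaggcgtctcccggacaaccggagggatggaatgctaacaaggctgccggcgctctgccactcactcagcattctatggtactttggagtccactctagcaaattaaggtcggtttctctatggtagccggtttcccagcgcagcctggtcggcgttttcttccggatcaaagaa
Timm8a1: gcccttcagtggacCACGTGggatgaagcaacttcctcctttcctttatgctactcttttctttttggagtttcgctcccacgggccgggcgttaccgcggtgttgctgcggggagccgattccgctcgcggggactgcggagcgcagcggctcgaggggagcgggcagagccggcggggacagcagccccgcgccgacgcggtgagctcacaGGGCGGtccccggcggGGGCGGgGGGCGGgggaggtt

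The motifs searched were GGGCGG (SP1), CCAAT (the CCAAT box), CACGTG (the E-box) and CCGGAAGT (ETS factors), on both strands and with overlaps allowed. Timm50 held 3 matches to GGGCGG and 2 to CCAAT, Timm8a1 held 3 to GGGCGG and 1 to CACGTG, and Timm10 held 0 of the 4 motifs. The RefSeq table had a sequence for 20 of the 23 members. GGGCGG was present in 55% of these, in 53% of 13715 genes of the table with a sequence and in 62.6% of the 8741 measured ones, and CCAAT in 30% of the members and 35.3% of all genes (36.7% of the measured). CACGTG was present in 20% of the members (Tomm20, Tomm20l, Timm8a1 and Timm9) and 7.66% of all genes (8.76% of the measured), and CCGGAAGT in 15% (Tomm70a, Timm23 and Timmdc1) of the members and 4.87% of all genes (6.34% of the measured). The members with a sequence include Tomm20l and Timm10b, which did not pass the level filter, so the shares of measured genes are not an exact match to them. The motif counts are letter matches in 1 window per gene, and no binding was measured.

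In the core of the TOM complex, the 4 measured genes did not share a direction. Tomm22, the central receptor that holds the complex together (ENSMUSG00000022427, chromosome 15, 79670861 to 79672862), was at 44.9 FPKM in the high and 40.98 FPKM in the low mPTP opening library, a ratio of 1.10 (1.01 to 1.19). Tomm40, the barrel that forms the pore (chromosome 7, 19701313 to 19715438), was at 7.96 FPKM in the high and 7.42 FPKM in the low mPTP opening library, a ratio of 1.07 (0.951 to 1.21). Of the exon length of Tomm40, 5.72% overlaps Gm20512. Tomm5, a small subunit beside the barrel, was at 27.1 FPKM in the high and 28.5 FPKM in the low mPTP opening library, a ratio of 0.952 (0.823 to 1.10). The intervals of Tomm40 and Tomm5 held 1, so no difference of either was detected at this depth.

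Tomm7 had the lowest ratio among the measured members. It encodes a small TOM subunit that, in human cells, is also needed to hold the kinase PINK1 at the outer membrane. It is ENSMUSG00000028998 on chromosome 5 (23838944 to 23844161). Its level was 16.3 FPKM in the high and 20.2 FPKM in the low mPTP opening library, from 301 reads in the high and 343 in the low, and the ratio was 0.807 (0.689 to 0.945). The ratios of the 4 core genes therefore ran from 0.807 to 1.10, and their summed level was 96.3 FPKM in the high and 97.1 FPKM in the low mPTP opening library.

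The 2 members grouped here as import receptors, apart from Tomm22 of the core, differed in opposite directions. Tomm70a, which takes up carrier precursors handed over by cytosolic Hsp70 and Hsp90 (ENSMUSG00000022752, chromosome 16, 57121714 to 57154530), was at 31.1 FPKM in the high and 28.0 FPKM in the low mPTP opening library, a ratio of 1.11 (1.06 to 1.16). Tomm20, the receptor for presequences (ENSMUSG00000093904, chromosome 8, 126930667 to 126945844), was at 29.5 FPKM in the high and 32.3 FPKM in the low mPTP opening library, a ratio of 0.912 (0.861 to 0.965). Its log2 difference was -0.01 with both libraries brought to the same FPKM sum, which raises every ratio. The FPKM sums of all genes had a ratio of 0.918 (high over low), but those of protein-coding genes alone 0.995. The level of Tomm70a over that of Tomm20 was 1.05 in the high and 0.866 in the low mPTP opening library, and these differed by a factor of 1.22 (1.13 to 1.31, exact conditional interval of the odds ratio, counting error only). Tomm70a had 4976 reads in the high and 4125 in the low mPTP opening library, and Tomm20 had 2368 in the high and 2389 in the low, which are the 2 highest read numbers among the members.

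The remaining Tomm genes showed no detectable difference. Tomm34, a cytosolic co-chaperone, was at 13.3 FPKM in the high and 12.4 FPKM in the low mPTP opening library, a ratio of 1.07 (0.957 to 1.202). Tomm40l, a paralog of the barrel, was at 1.09 FPKM in the high and 1.07 FPKM in the low mPTP opening library, a ratio of 1.02 (0.749 to 1.39), and 64.3% of its exon length is shared with Nr1i3, so its reads are uncertain. Tomm20l, a paralog of the receptor, was at 0 FPKM in the high and 0.111 FPKM in the low mPTP opening library. Both lie under the level of 3 reads, which is 0.254 FPKM in the high and 0.277 FPKM in the low, so no ratio is given.

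**Figure D2:**
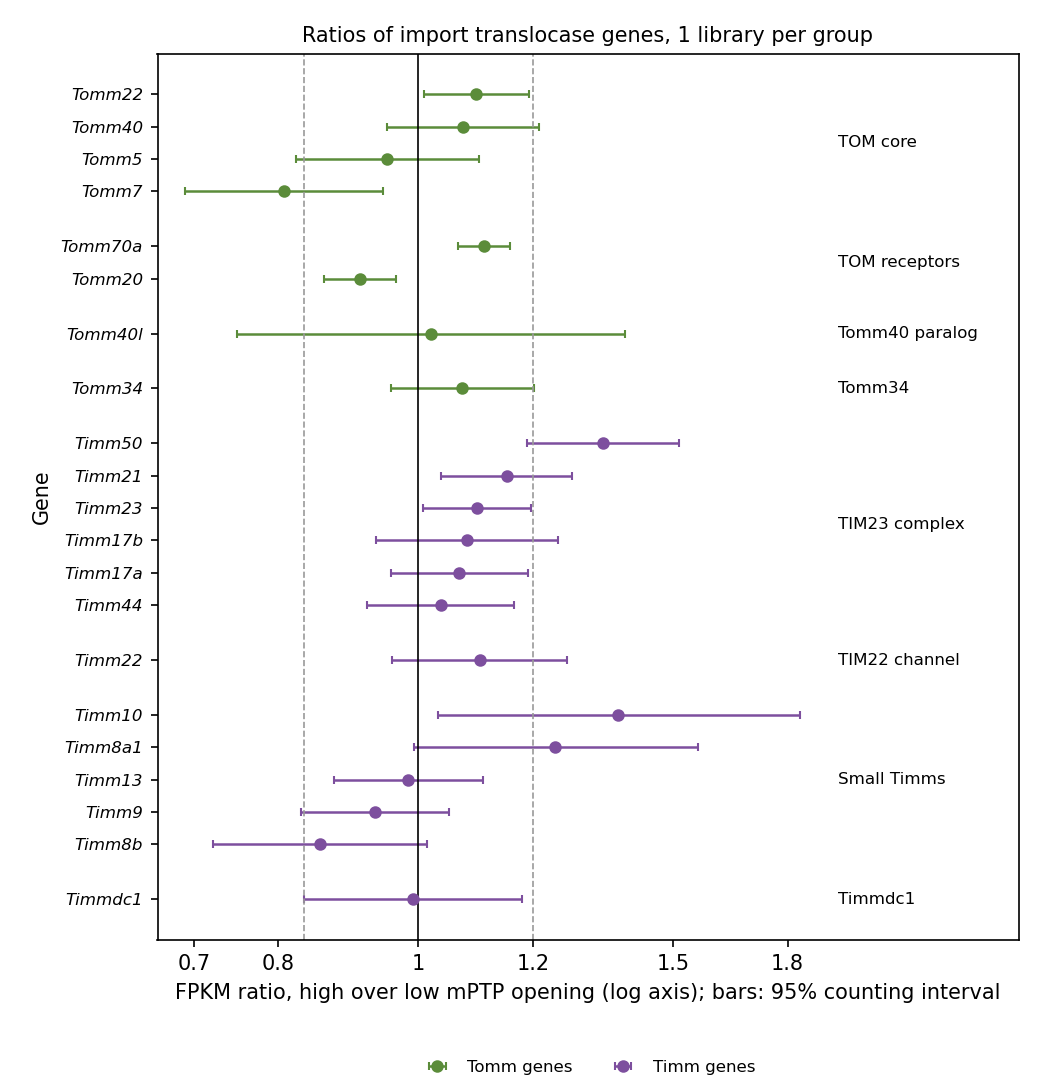
FPKM ratio of the high over the low mPTP opening library for the 21 measured genes (log axis), with bars for the exact 95% counting interval, Tomm genes in green, Timm genes in purple and dashed lines at 1.2-fold in either direction. All 6 genes of the TIM23 complex lie right of 1, while the small Timms run from 0.855 for Timm8b to 1.37 for Timm10 and the TOM core from 0.807 for Tomm7 to 1.10 for Tomm22.

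All 6 genes of the TIM23 complex were higher in the high mPTP opening library, with ratios from 1.04 to 1.34. The interval lay above 1 for 3 of them. Each scaling tried raises every ratio, so none could turn these signs. Among all genes that averaged 5 FPKM or more, the level of these 6, 50.3% were positive and 27.3% had an interval above 1. In the related lists described below, the positive share of measured genes was 68.8% for the mitochondrial ribosome, 60.9% for other import genes and 52.8% for complex I. Timm50, the receptor that takes the presequence from TOM and guards the channel (ENSMUSG00000003438, chromosome 7, 28305516 to 28312072), was at 14.99 FPKM in the high and 11.2 FPKM in the low mPTP opening library. The reads behind these levels were 659 in the high and 452 in the low, and the ratio was 1.34 (1.19 to 1.51). Timm21, which in yeast tethers the complex to TOM and to the respiratory chain (chromosome 18, 84947294 to 84951524), was at 13.4 FPKM in the high and 11.7 FPKM in the low mPTP opening library, a ratio of 1.15 (1.04 to 1.28). Timm23, the subunit that gives the complex its name (chromosome 14, 32180162 to 32201898), was at 40.2 FPKM in the high and 36.6 FPKM in the low mPTP opening library, a ratio of 1.10 (1.01 to 1.196). Of the exon length of Timm23, 5.82% overlaps Gm23946.

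The other 3 genes of the complex had intervals that held 1. Timm17b was at 9.79 FPKM in the high and 9.06 FPKM in the low mPTP opening library, and its paralog Timm17a at 5.54 FPKM in the high and 5.19 FPKM in the low. Both encode a core subunit of the complex, and the level of Timm17a over Timm17b was 0.566 in the high and 0.573 in the low mPTP opening library, a factor of 0.988 (0.823 to 1.19). Timm44, which anchors the Hsp70 motor, was at 10.2 FPKM in the high and 9.89 FPKM in the low mPTP opening library, a ratio of 1.04 (0.922 to 1.16). The summed level of the 6 genes was 94.2 FPKM in the high and 83.6 FPKM in the low mPTP opening library, a ratio of 1.13.

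In the carrier pathway, Timm22, the inserting channel (chromosome 11, 76406952 to 76416292), was at 8.69 FPKM in the high and 7.89 FPKM in the low mPTP opening library, a ratio of 1.10 (0.959 to 1.27). Timm10b, a small subunit docked to that channel, was at 0.273 FPKM in the high and 0.445 FPKM in the low mPTP opening library, from 16 reads in the high and 24 in the low, and was not measured by the filter. Its ratio of 0.613 had an interval of 0.304 to 1.203, and 10.5% of its exon length overlaps Gm45799. The gene listed as 1810026J23Rik, which GENCODE M21 now names Timm29 and which encodes a partner of Timm22 in human cells, is not a member by symbol. It was at 16.7 FPKM in the high and 16.0 FPKM in the low mPTP opening library, a ratio of 1.04 (0.946 to 1.15).

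The 5 small chaperones of the intermembrane space were the most spread group of the inner membrane genes, and their summed level was 83.0 FPKM in the high and 85.2 FPKM in the low mPTP opening library. Timm10 (ENSMUSG00000027076, chromosome 2, 84826997 to 84830213) had the highest ratio of the measured members. It was at 9.29 FPKM in the high and 6.76 FPKM in the low mPTP opening library, from 124 reads in the high and 83 in the low, and the ratio was 1.37 (1.03 to 1.84). Timm9, with which it forms a ring-shaped hexamer that shields carrier precursors, was at 8.22 FPKM in the high and 8.81 FPKM in the low mPTP opening library, a ratio of 0.933 (0.829 to 1.05). The level of Timm10 over that of Timm9 was thus 1.13 in the high and 0.768 in the low mPTP opening library, and these differed by a factor of 1.47 (1.08 to 2.02).

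Timm8a1, the mouse counterpart of the human gene of deafness-dystonia syndrome, was at 8.08 FPKM in the high and 6.50 FPKM in the low mPTP opening library, a ratio of 1.24 (0.994 to 1.56). Its paralog Timm8b (chromosome 9, 50603910 to 50605320) was at 31.4 FPKM in the high and 36.7 FPKM in the low mPTP opening library, a ratio of 0.855 (0.721 to 1.01). Each interval alone held 1, but the level of Timm8a1 over that of Timm8b was 0.258 in the high and 0.177 in the low mPTP opening library, which differed by a factor of 1.45 (1.09 to 1.93). Timm8b has 518 nt of exon, the shortest of the members, and 15.6% of it overlaps Nkapd1.

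Timm13, which assembles with Timm8a1, was at 26.0 FPKM in the high and 26.5 FPKM in the low mPTP opening library, a ratio of 0.984 (0.874 to 1.11). The level of Timm8a1 over Timm13 was 0.310 in the high and 0.246 in the low mPTP opening library, a factor of 1.26 (0.979 to 1.63). The 6 pairs set side by side, which include Tomm40l over Tomm40 at a factor of 0.9501 (0.681 to 1.33), were chosen after the values were seen, and their intervals are not adjusted for that number. Timmdc1, an assembly factor of respiratory complex I that resembles Timm23 in sequence, was at 9.52 FPKM in the high and 9.60 FPKM in the low mPTP opening library, a ratio of 0.991 (0.833 to 1.18).

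Levels compared between members depend on the length by which reads are divided. As deposited, the members with the highest mean FPKM were Tomm22, Timm23, Timm8b and Tomm20, and the lowest measured ones were Tomm40l, Timm17a and Timm8a1. For 17 of the 23 members the deposited FPKM gave whole reads with the summed length of all annotated exons. For Timm9 it did not, so its exon length behind the table may differ somewhat from the 4282 nt of GENCODE M21, where its principal transcript has 990 nt. Over the principal transcript, and from recovered reads that were not whole numbers, Timm9 was at 35.5 FPKM in the high and 38.1 FPKM in the low mPTP opening library. It moved from place 15 to place 5 among the 23 members. Tomm40 was at 21.8 FPKM in the high and 20.3 FPKM in the low mPTP opening library on that scale, Timm44 at 20.98 FPKM in the high and 20.25 FPKM in the low, and Timm50 at 26.6 FPKM in the high and 19.8 FPKM in the low. The level of Timm10 over Timm9 was then 0.309 in the high and 0.210 in the low mPTP opening library, so the order of that pair within the high mPTP opening library turned with the length, while its difference between libraries did not. Ratios between libraries do not depend on this length.

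**Figure D3:**
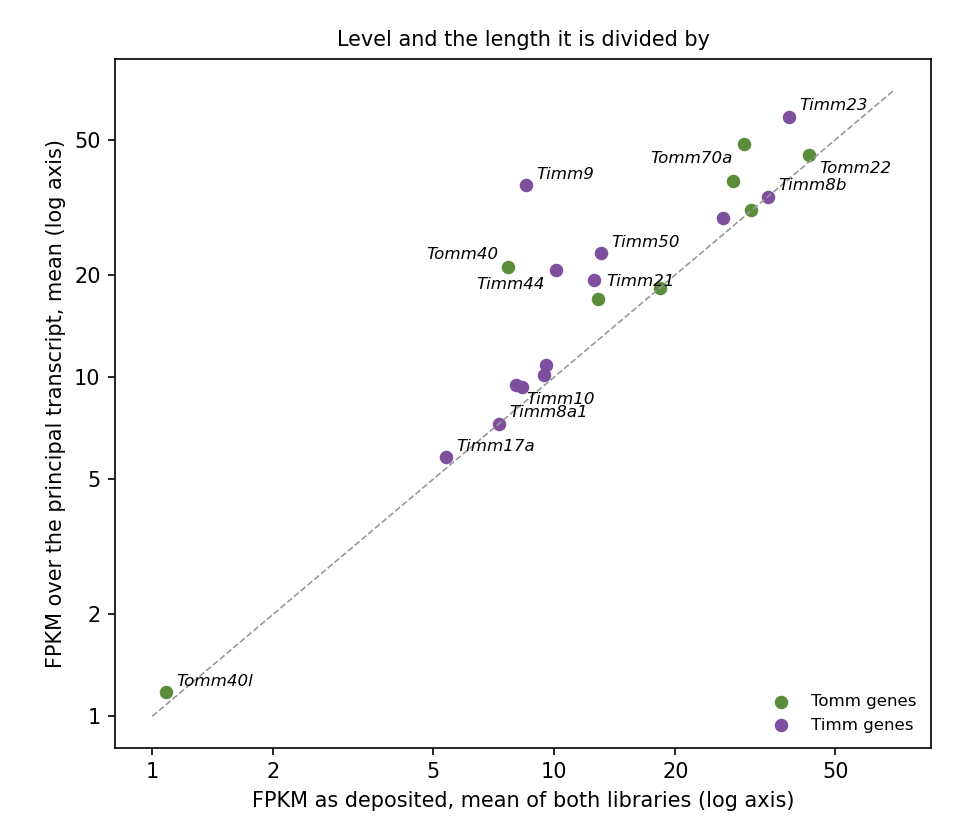
Mean FPKM of the 2 libraries as deposited (horizontal, log axis) against the same reads divided by the length of the principal GENCODE M21 transcript (vertical, log axis), with Tomm genes in green, Timm genes in purple and a dashed line of equality. Timm9, Tomm40 and Timm44 lie furthest above the line, and Tomm40l is the lowest measured gene on both axes.

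The other genes of import, a list of 24 genes of which 23 were measured, were also inside 1.5-fold. Of these 23, 0 differed by 1.5-fold or more, 1 was higher by 1.2-fold (Mipep), and 14 were positive, around a median log2 difference of 0.07. Over all measured genes, 1.54% were higher and 4.38% lower at 1.5-fold, and 9.6% higher and 17.5% lower at 1.2-fold. The intervals of 5 lay above 1 and of 0 below it. The 21.7% above 1 is near the 20.4% of all measured genes and under the 27.3% of those that averaged 5 FPKM or more. An interval below 1 was found for 26.4% of all measured genes, and for the same share of those that averaged 5 FPKM or more. Of the list 60.9% was positive, against 45.4% of all measured genes and 50.3% of those that averaged 5 FPKM or more. Mipep, the peptidase that trims a group of imported precursors, was at 7.55 FPKM in the high and 6.08 FPKM in the low mPTP opening library, a ratio of 1.24 (1.10 to 1.40). Hspa9, the matrix Hsp70 that pulls precursors through TIM23, was at 216 FPKM in the high and 185 FPKM in the low mPTP opening library, a ratio of 1.16 (1.14 to 1.19). Samm50, which inserts barrels such as Tomm40 into the outer membrane, was at 55.2 FPKM in the high and 49.3 FPKM in the low mPTP opening library, a ratio of 1.12 (1.08 to 1.16).

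Partners of the motor had ratios on both sides of 1, with intervals that held 1 for Pam16, Dnajc19 and Grpel2. Pam16, which holds the J-domain partner of the motor, was at 8.84 FPKM in the high and 10.2 FPKM in the low mPTP opening library, a ratio of 0.864 (0.744 to 1.001). Dnajc19, a J-domain protein of the motor, was at 4.75 FPKM in the high and 4.17 FPKM in the low mPTP opening library, a ratio of 1.14 (0.961 to 1.35). Grpel2, a nucleotide exchange factor of the motor, had a ratio of 0.885 (0.776 to 1.01). Immp1l, an inner membrane peptidase, had the lowest ratio of the list at 0.859 (0.733 to 1.01), and Mtx3, a metaxin of the outer membrane, had a ratio of 0.892 (0.778 to 1.02). Chchd4, the oxidoreductase that folds the small Timms, was at 1.79 FPKM in the high and 1.52 FPKM in the low mPTP opening library, a ratio of 1.17 (0.918 to 1.51).

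Other groups of nuclear genes for mitochondrial proteins gave a scale for these medians. The 77 measured genes of the mitochondrial ribosome had a median log2 difference of 0.06, with 53 positive. The 36 measured subunits of complex I had a median of 0.02, with 19 positive. The medians of the Timm and Tomm genes, 0.10 and 0.05, were set beside these without a test of the difference.

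**Figure D4:**
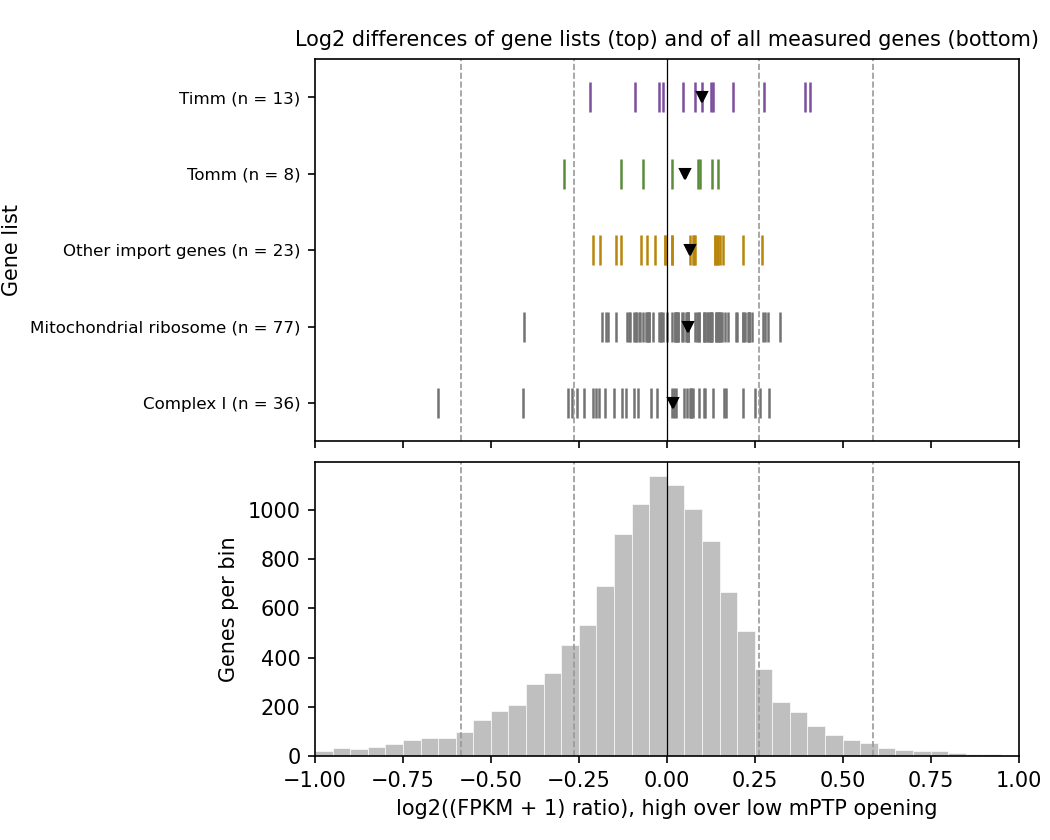
Log2((FPKM + 1) ratio) of the high over the low mPTP opening library, with 1 tick per measured gene and a triangle at the median of each list (top) and the number of all measured genes per bin of 0.05 (bottom; 153 of 11900 genes lie beyond the axis). Dashed lines mark 1.2-fold and 1.5-fold, and all Timm and Tomm ticks lie inside 1.5-fold.

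Tomm40 lies close to Apoe on chromosome 7, with 2124 bases between them in the table. Apoe, which encodes a lipid-carrying apolipoprotein, was at 50.7 FPKM in the high and 158 FPKM in the low mPTP opening library, a ratio of 0.320 (0.303 to 0.338), whereas Tomm40 had a ratio of 1.07.

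The sorted pools also differed in markers of other cells and of division, whose part in the translocase values was not tested. The summed level of 8 fibroblast markers was 6084 FPKM in the high and 6163 FPKM in the low mPTP opening library, and none was at 0. Of these 8, 5 were higher and 3 lower with a counting interval that left out 1, with ratios from 0.566 (Dcn) and 0.625 (Lum) to 1.44 (Thy1). The near-equal sum is mostly that of Col1a1 and Col1a2. All 10 markers of dividing cells were higher in the high mPTP opening library (255 FPKM summed in the high against 168 FPKM in the low), as were 6 of 6 smooth muscle markers (2118 FPKM in the high against 1244 FPKM in the low). The smooth muscle sum is mostly that of Acta2, and 5 of these 6 had an interval above 1. That of Tagln held 1 (ratio 1.13, 0.744 to 1.74). All 12 macrophage markers were lower (485 FPKM in the high against 980 FPKM in the low), as were the 6 mesothelial markers (17.5 FPKM in the high against 39.0 FPKM in the low) and the 4 measured of 6 Schwann cell markers (over all 6, 1.498 FPKM in the high against 12.4 FPKM in the low). In such pools, fewer cells of a type and less RNA per cell cannot be told apart.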

How the data were processed

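Per the labels' protocols, total RNA of the sorted fibroblasts was taken with TRIzol and made into libraries with an Illumina TruSeq kit. The submitters' processing notes name Bowtie2 2.2.3, TopHat2 2.0.12 and the build mm10. The authors deposited 1 table of FPKM values, and 1 line of it was emptied before use here. No counting tool, annotation or strand setting is given in the sources used here, so members that overlap another gene or have near copies are uncertain.

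FPKM times the summed exon length in GENCODE M21 was, for most genes, a whole multiple of 1 step per library. Of genes with up to 20 reads, 93.4% (high) and 93.1% (low mPTP opening library) were whole numbers of reads to within 0.05. Of all genes, 85.6% (high) and 85.7% (low) were. The steps gave denominators of 16375726 and 15060435. Summed over genes, recovered reads came to 1.10 of the denominator in each library, so what the authors counted as the denominator, and whether a step is a read or a fragment, is not known. For 6 of the 23 members reads were rounded, so their intervals are approximate (Tomm70a, Tomm22, Tomm20l, Timm21, Timm13 and Timm9). Gene identifiers were found in GENCODE M21 for 99.7% of rows.

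Differences were log2((high + 1)/(low + 1)) of FPKM, fitted to no model, with 1.5-fold as the size rule and 1.2-fold beside it. Pseudocounts, scalings, filters, fold sizes and leaving out members were the alternatives. Every member is named. Of the other import genes, the 4 largest and 4 smallest differences, Hspa9, Samm50 and Chchd4 are named. The members and lists were chosen with earlier results of these data known. The scripts were tested on simulated data. Software was SciPy 1.17.1, pandas 2.3.3, NumPy 2.4.6 and matplotlib 3.10.9 under Python 3.11.15.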

Additional observations from a re-analysis of the deposited data

How the results depend on the processing

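The median log2 difference stayed positive in each alternative tried, between 0.07 and 0.23 for the Timm genes, between 0.01 and 0.17 for the Tomm genes and between 0.04 and 0.19 for the other import genes. Scaling by the median ratio adds 0.027 to every log2 ratio and the trimmed mean adds 0.030, and no pseudocount changes a sign. Scalings and pseudocounts could therefore not turn a median negative, whereas filters and leaving out members could. The highest median of each list came from scaling to a sum of 1000000, which adds 0.12 to every log2 ratio of FPKM. The FPKM sums of all genes had a ratio of 0.918 (high over low), but those of protein-coding genes 0.995. The background shifts with this scaling too, and its rescaled median and shares are not given here. On that scale Timm13, Timm9, Timmdc1 and Tomm5 changed sign, and Timm13 and Timmdc1 did so after scaling by the median ratio or a trimmed mean of log ratios. At 1.2-fold in place of 1.5-fold, the count of lower Tomm genes was 1, that of higher Timm genes 3 and that of higher other import genes 1, each against 0. Those 1.2-fold calls changed with the scaling to 1000000 and with a pseudocount of 5 FPKM. The outer minus inner difference ran from -0.09, without members overlapping another gene, to -0.00012, without the furthest member of each list. The first of these, the longer inner list with 1810026J23Rik and the levels over principal transcripts were chosen after seeing the data. No paired analysis was possible because each group had 1 library, and for the same reason none could be left out. Depth limits Timm10b, Tomm40l, Timm10 and Timm8a1, which have the fewest reads of the members above 0 in both libraries.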
